A study of Mus musculus with 10 samples.

Results

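Car2, Car4, Car5b, Car12, Car14 and Car15, which encode carbonic anhydrases, were followed in mouse kidney together with Slc4a4 and Slc9a3, which encode transporters of bicarbonate and acid in the proximal tubule. The 8 genes were chosen by name, with earlier results of these data known, and all 8 were found among the 13837 genes of the deposited table. Kidney RNA came from 5 Rragc+/+ mice and 5 Rragc S74N/+ mice, all 3 months old, with 1 library per mouse. Rragc encodes RagC, a GTPase that passes nutrient signals to the kinase complex mTORC1. The S74N allele is an activating knock-in made by genome editing, carried in the heterozygous state in every cell of the body, so that an effect on the kidney need not have arisen in kidney cells. The comparison asks how the genotype bears on these genes in young adult mice.

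Carbonic anhydrases catalyse the reversible hydration of carbon dioxide to bicarbonate and a proton. In the proximal tubule, the sodium-proton exchanger NHE3 secretes protons into the lumen, membrane-bound anhydrases speed the breakdown of the filtered bicarbonate, a cytosolic anhydrase forms bicarbonate again inside the cell, and the cotransporter NBCe1 returns it to the blood. The distal nephron then secretes the remaining acid through intercalated cells, which also depend on carbonic anhydrase.

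Each value below is a normalized count, that is, the reads of a gene divided by the size factor of the library. Reads came from the 3′ end of polyadenylated RNA, so isoforms that share an end were not told apart. Libraries held between 6501552 and 7996087 reads after the normalization was undone. The share of mitochondrial reads was 24.5% to 30.1% in Rragc+/+ kidneys and 23.9% to 27.1% in Rragc S74N/+ kidneys. Libraries whose codes end in 38 to 40 held 2 Rragc+/+ mice and 1 Rragc S74N/+ mouse, and those ending in 53 to 66 held 3 and 4. Within codes 53 to 66 the mitochondrial shares did not overlap, at 28.7% to 30.1% in Rragc+/+ and 23.9% to 25.8% in Rragc S74N/+ kidneys. Within codes 38 to 40 they went the other way, at 24.5% and 25.7% against 27.1%. What the codes stand for is not given in the sources used here. Proximal tubule transcripts were abundant in every kidney, with the summed level of 7 markers of the first and second segments between 38949 and 48855 normalized counts. The p-values set the difference between genotypes against the spread between mice within them, and treat the 10 mice as independent. Nothing in the labels describes how the mice relate to each other, so that independence could not be checked.

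Car12 fell in Rragc S74N/+ kidneys, and none of the other 7 genes passed the test. By limma with adjustment over 13197 genes, 1 of the 8 was past an adjusted p of 0.05, beside 3.69% of all genes tested (487 genes, of which 1.67% of those tested were higher and 2.02% lower in Rragc S74N/+). Car12 alone of the 8 had values that did not overlap between the genotypes, beside 5% of all genes tested. A positive log2 fold change was seen for 6 of the 8 genes and for 50.1% of all genes, with a median of 0.18 against 4.6e-04. An unadjusted p under 0.05 was reached by 4 of the 8 (Car4, Car12, Car15 and Slc4a4), beside 15.4% of all genes. The 8 genes are too few for such shares to set them apart from the rest.

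**Figure D1:**
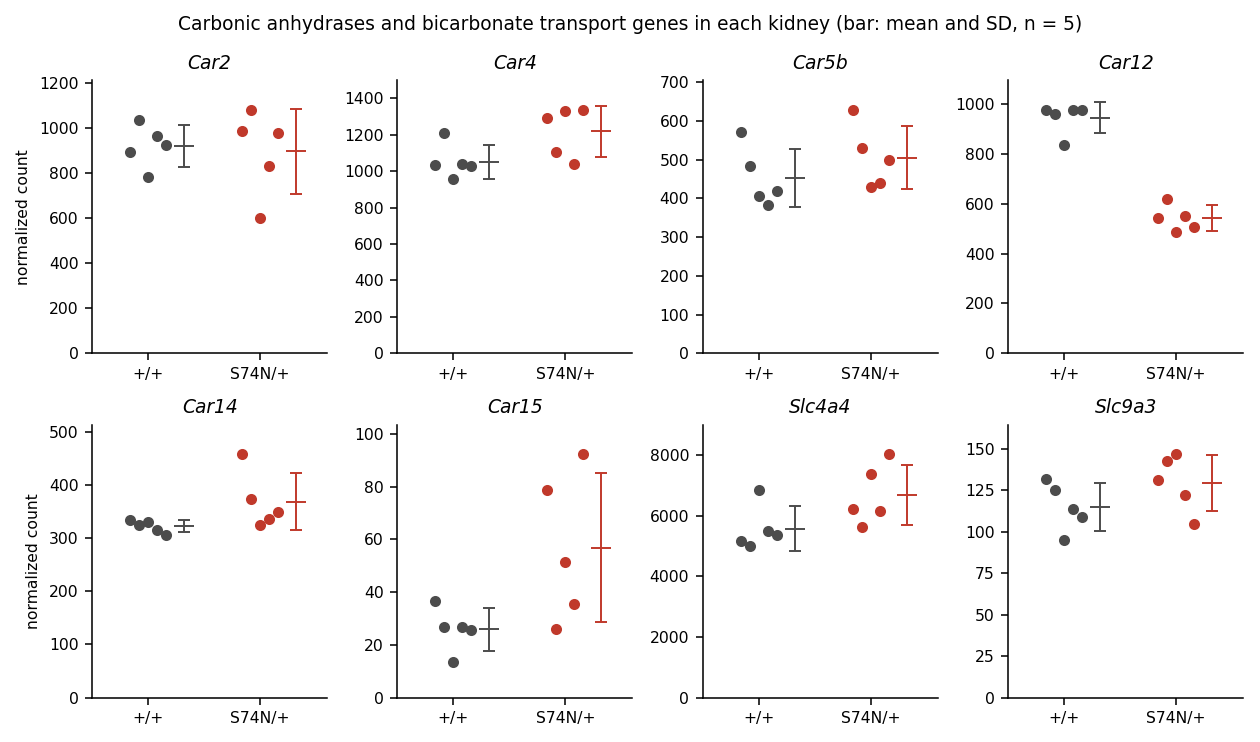
Normalized count of each of the 8 genes on a linear axis that starts at 0, with 1 point per mouse for 5 Rragc+/+ kidneys (grey) and 5 Rragc S74N/+ kidneys (red), and the mean ± SD beside them. Car12 lay between 835 and 979 in the first genotype and between 488 and 621 in the second, whereas the points of the other 7 genes overlapped.

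Car12 encodes a transmembrane carbonic anhydrase whose catalytic domain faces the outside of the cell. Its normalized counts were 978, 961, 835, 979 and 979 in the Rragc+/+ kidneys and 544, 621, 488, 553 and 506 in the Rragc S74N/+ kidneys. Every Rragc S74N/+ kidney lay below the lowest Rragc+/+ kidney, which was replicate 3. The mean was 946 ± 62.9 (SD, n = 5) against 542 ± 51.4 (SD, n = 5), a ratio of 0.57. The log2 fold change was -0.81 with a standard error of 0.09 and a 95% interval from -0.99 to -0.62, and limma gave an adjusted p of 1.65e-05, which placed Car12 at rank 27 of the genes tested. An exact permutation test over mice gave 0.00794, the smallest p that 5 against 5 mice allow. The call was kept in all 23 alternative fits, including each that left out 1 mouse, with log2 fold changes from -0.86 to -0.77.

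The 250 bases that precede the annotated start of Car12 are shown because it is the 1 gene of the 8 that passed the test, and those of Slc9a3 because they hold the E-box CACGTG, the core of the element that TFEB and TFE3, transcription factors held back by mTORC1, recognise. Both come from the RefSeq promoter table on GRCm38.p6, a build other than that of the counts, and are printed 5′ to 3′ on the plus strand, which is the strand of both genes. Car12 lies at chr9:66713436-66713685 and Slc9a3 at chr13:74121163-74121412, both upstream of the transcript. Capitals mark CACGTG.
Car12: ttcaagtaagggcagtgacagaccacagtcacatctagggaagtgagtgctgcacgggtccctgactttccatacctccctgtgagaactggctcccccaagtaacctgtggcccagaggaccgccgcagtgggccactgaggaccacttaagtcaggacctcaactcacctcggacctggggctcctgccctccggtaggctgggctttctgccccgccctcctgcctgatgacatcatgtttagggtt
Slc9a3: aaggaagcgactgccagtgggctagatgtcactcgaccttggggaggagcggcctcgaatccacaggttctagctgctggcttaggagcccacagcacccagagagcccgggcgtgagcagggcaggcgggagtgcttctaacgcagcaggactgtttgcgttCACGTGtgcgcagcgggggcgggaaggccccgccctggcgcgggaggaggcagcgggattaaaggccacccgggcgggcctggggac
In that table, 8 promoters of 7 of the genes were matched, and Car2 had none. Motifs were searched from 250 bases before to 50 bases after each start, a longer window than the one printed. CACGTG, which reads the same on both strands, was found in 1 of the 8 promoters, from 87 to 82 bases before the start of Slc9a3, and in 7.15% of 32851 promoters of the same length. The longer GTCACGTG, which contains it, was searched on both strands and found in 0 of 8 and in 2.25% of all. GTTAAT, a motif of the tubule factor HNF1, was searched on both strands and found in 0 of 8 and in 7.10%. The window before Car12 was 59.2% G and C with 6 CpG, and that before Slc9a3 67.6% with 19 CpG, against medians of 52.4% and 6 over all promoters. These matches describe letters in a window, and binding was not measured.

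Beside the fall of Car12, markers of several nephron segments differed between the genotypes. The summed level of 6 markers of type A intercalated cells ran from 1381 to 1576 in Rragc+/+ kidneys and was between 1004 and 1203 in Rragc S74N/+ kidneys, and 3 of the 6 fell (Slc4a1, Atp6v0d2 and Aqp6). For 4 markers of the thick ascending limb the sums ran from 26519 to 35342 and from 11832 to 19837. Past the test, 2 were lower (Umod and Kcnj1) and 1 was higher (Cldn16). Most of these sums was Umod, with means of 22917 in Rragc+/+ and 11569 in Rragc S74N/+ kidneys. Slc12a1 overlapped, with means of 6354 and 5540 (limma adjusted p of 0.438). For 4 markers of the distal convoluted tubule the sums ran from 4154 to 4813 and from 2424 to 3280. The 3 lower past the test were Slc12a3, Pvalb and Trpm6. Their mean normalized counts went from 2698 to 1179, from 134 to 15.2 and from 80.4 to 21.7. Calb1 overlapped, with means of 1601 and 1544 (limma adjusted p of 0.852), and was a large part of these sums.

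Other cell types went the other way or overlapped. Principal cell markers summed to between 1504 and 1932 in Rragc+/+ and between 2061 and 3298 in Rragc S74N/+ kidneys. By limma, 2 of 6 were higher past the test, Avpr2 and Hsd11b2 (1 of 6 with edgeR and 5 with DESeq2). Type B intercalated cell markers overlapped, from 373 to 518 and from 375 to 519. Of these 4 markers 0 passed by limma, edgeR or DESeq2, and 1 had an unadjusted p under 0.05. In bulk tissue, fewer cells of a type and less RNA per cell cannot be told apart, and the part of these markers in the fall of Car12 was not tested.

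**Figure D2:**
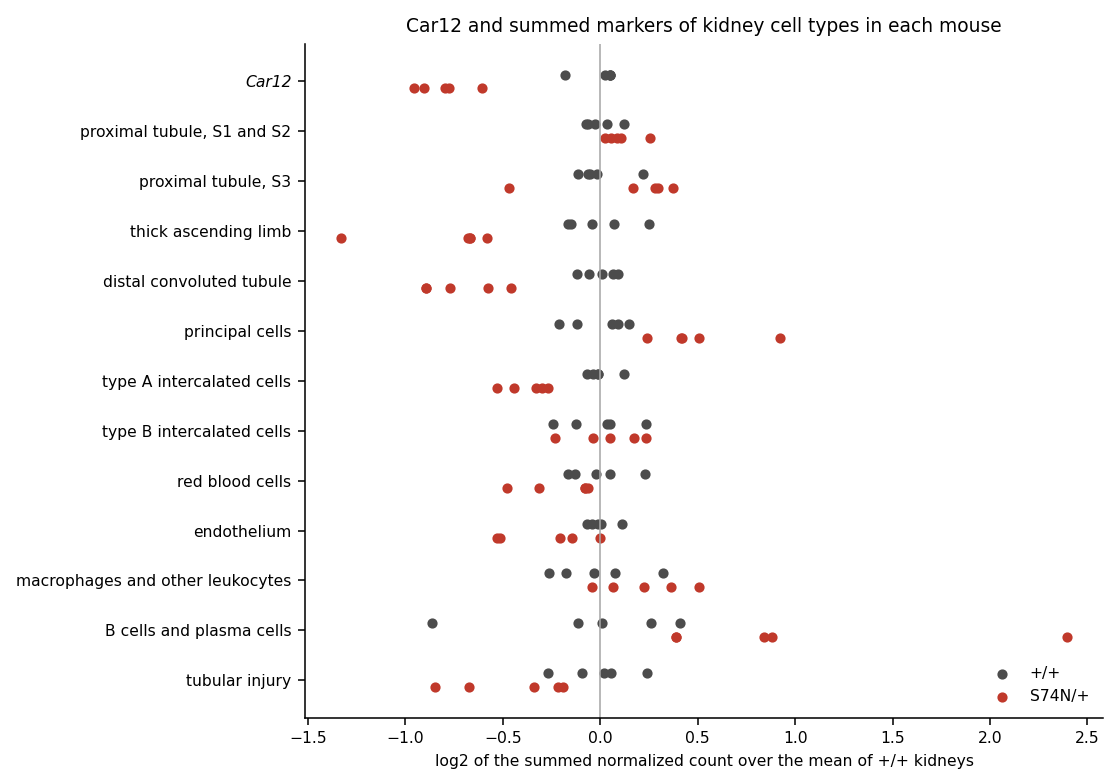
Level of Car12 and summed level of each marker list in each mouse, as log2 of the ratio to the mean of the 5 Rragc+/+ kidneys, with Rragc+/+ in grey and Rragc S74N/+ in red and 1 point per mouse. The points of the genotypes separate downward for Car12, the thick ascending limb, the distal convoluted tubule and type A intercalated cells. They separate upward for principal cells and overlap for type B intercalated cells. Most of the thick ascending limb sum is Umod, and a large part of the distal convoluted tubule sum is Calb1, which overlapped.

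Car15 encodes a carbonic anhydrase anchored to the membrane by a lipid, which is active in rodents. Its normalized counts were 36.5, 26.7, 13.6, 26.8 and 25.6 in Rragc+/+ kidneys and 78.7, 26, 51.5, 35.6 and 92.4 in Rragc S74N/+ kidneys. Replicates 1, 3 and 5 of Rragc S74N/+ lay above every Rragc+/+ kidney, whereas replicates 2 and 4 lay within their range. The mean was 25.8 ± 8.14 (SD, n = 5) against 56.9 ± 28.2 (SD, n = 5), a ratio of 2.20. On the log2 scale the difference was 1.02 with a standard error of 0.31 and a 95% interval from 0.36 to 1.68, with a limma adjusted p of 0.0876, and the exact permutation p was 0.0635.

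Car15 rested on few reads, between 12 and 95 per library. Its adjusted p was 0.0160 with DESeq2, 0.0600 with edgeR, 0.0290 by limma with the series of library codes as a covariate, and 0.0240 by limma without Rragc S74N/+ replicate 2. The highest values stood in Rragc S74N/+ replicates 1 and 5, and these libraries also held the most Cfd, an adipocyte transcript. Cfd was at 807 and 3504 normalized counts in them and between 0 and 52.3 in the other 8 kidneys, while the adipocyte markers Adipoq, Plin1 and Cidec were not among the genes of the table. Without these libraries the log2 fold change of Car15 was 0.54 with a limma adjusted p of 0.533. The part of adipose tissue in the values of Car15 was not tested.

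**Figure D3:**
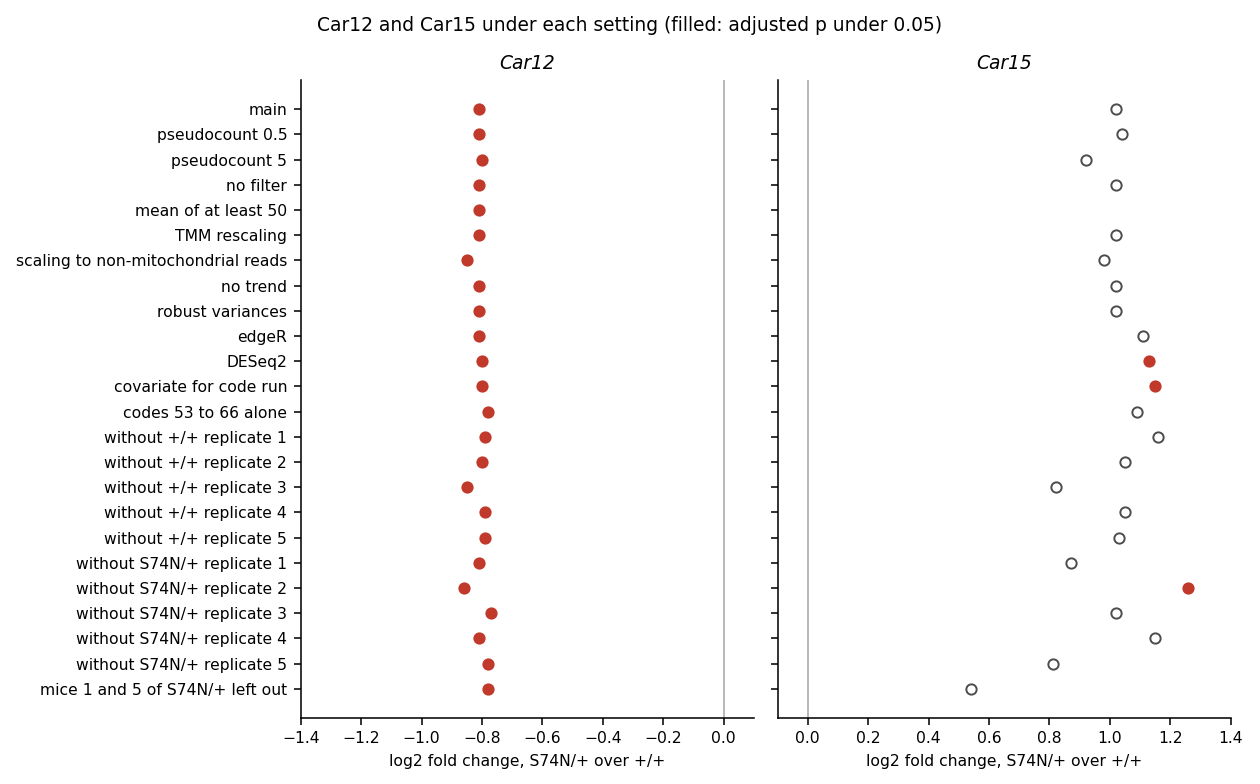
Log2 fold change of Car12 (left) and Car15 (right), Rragc S74N/+ over Rragc+/+, under the chosen fit and each alternative, with filled red points where the adjusted p was under 0.05 and open grey points elsewhere. Car12 stays between -0.86 and -0.77 and is filled throughout, whereas Car15 runs from 0.54 to 1.26 and is filled in 3 of 22 alternatives. It was not tested in the alternative that asked for a mean of at least 50.

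Car4, the lipid-anchored anhydrase of the proximal tubule and thick ascending limb, had normalized counts of 1033, 1209, 957, 1039 and 1027 in Rragc+/+ kidneys. In Rragc S74N/+ kidneys they were 1290, 1103, 1329, 1038 and 1339. Replicates 1, 3 and 5 of Rragc S74N/+ exceeded all Rragc+/+ kidneys, and replicates 2 and 4 fell among them. The means were 1053 ± 93.5 and 1220 ± 140 (SD, n = 5 each), the log2 fold change was 0.21 with a 95% interval from 0.01 to 0.40, and the adjusted p by limma was 0.281. The exact permutation p was 0.0635.

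Car14, the transmembrane anhydrase of the proximal tubule, was read at 335, 325, 331, 315 and 307 normalized counts in Rragc+/+ kidneys and at 459, 374, 326, 337 and 349 in Rragc S74N/+ kidneys. Of the latter, 4 lay above the highest Rragc+/+ kidney, and replicate 3 lay within the Rragc+/+ range. The means were 323 ± 11.3 and 369 ± 53.4 (SD, n = 5 each). Its log2 fold change of 0.18, with a 95% interval from -0.03 to 0.39, had a limma adjusted p of 0.413 and an exact permutation p of 0.0317, the latter without adjustment for the number of genes.

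Car2 encodes the main cytosolic anhydrase of the kidney, present in proximal tubule and intercalated cells. The Rragc+/+ kidneys held 892, 1033, 781, 962 and 924 normalized counts and the Rragc S74N/+ kidneys 986, 1081, 601, 831 and 975. The lowest and the highest of the 10 values both belonged to Rragc S74N/+ mice, replicates 3 and 2. The means were 918 ± 93.0 and 895 ± 187 (SD, n = 5 each), and the log2 fold change of -0.06 had an interval from -0.33 to 0.21 (limma adjusted p of 0.882). Without Rragc S74N/+ replicate 3 its sign turned, to 0.08.

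Car5b encodes a mitochondrial anhydrase, which supplies bicarbonate to reactions within that organelle. It was read at 571, 485, 407, 384 and 420 normalized counts in Rragc+/+ kidneys and at 630, 530, 430, 440 and 499 in Rragc S74N/+ kidneys. The ranges overlapped, and the highest kidney of each genotype was replicate 1, in both cases a library with a code ending in 38 to 40. The log2 fold change was 0.16 with a 95% interval from -0.10 to 0.42 and a limma adjusted p of 0.610. With the series of library codes as a covariate it was 0.24 (limma adjusted p of 0.125).

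Slc4a4 encodes NBCe1, the basolateral sodium-bicarbonate cotransporter of the proximal tubule. Its normalized counts were 5167, 5008, 6845, 5494 and 5352 in Rragc+/+ kidneys and 6217, 5629, 7377, 6158 and 8042 in Rragc S74N/+ kidneys. Replicate 3 of Rragc+/+ stood above the other 4 of its group and reached into the range of Rragc S74N/+, in which replicates 3 and 5 were highest. The means were 5573 ± 734 and 6685 ± 992 (SD, n = 5 each). The log2 fold change of 0.26, with a 95% interval from 0.03 to 0.48, had a limma adjusted p of 0.237 and an exact permutation p of 0.0794.

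Slc9a3 encodes NHE3, the apical sodium-proton exchanger that begins bicarbonate reclamation. The Rragc+/+ kidneys held 132, 125, 95.3, 114 and 109 normalized counts and the Rragc S74N/+ kidneys 131, 143, 147, 122 and 105. Only replicates 2 and 3 of Rragc S74N/+ exceeded the highest Rragc+/+ kidney. The log2 fold change was 0.17 with a 95% interval from -0.10 to 0.44 and a limma adjusted p of 0.60. For Car2, Car4, Car5b, Car14, Slc4a4 and Slc9a3, the threshold was passed in none of 23 alternative fits. The 95% intervals of these genes reached down to -0.33 (Car2) and up to 0.48 (Slc4a4) on the log2 scale.

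The relation between genes was compared within each mouse as the difference of their log2 levels, for 4 pairs, with exact permutation p-values adjusted over the 4. Car12 exceeded Car15 by 5.20 ± 0.41 (SD, n = 5) in Rragc+/+ and by 3.37 ± 0.85 in Rragc S74N/+ kidneys. The shift of -1.83 had an exact p of 0.00794 and an adjusted p of 0.0317, and the values did not overlap, from 4.71 to 5.84 against 2.44 to 4.52. Without any 1 of the 5 Rragc+/+ mice the adjusted exact p was 0.0635, and the smallest shift was -1.67, without replicate 3. Without Rragc S74N/+ replicates 1 and 5 it was 0.0714, with a shift of -1.31. Without any 1 of the 5 Rragc S74N/+ mice, the adjusted exact p stayed between 0.0159 and 0.0317. Values that did not overlap over all mice did not overlap in these subsets either. Leaving out 1 mouse of either genotype allows the same number of splits, so that number does not account for 0.0635 beside 0.0159 to 0.0317. With groups of unequal size, a split other than that by genotype can give as large a difference in means. The exact p also moves in coarse steps. These p-values therefore cannot show whether the shift was weaker or rested on particular mice.

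The other 3 pairs did not pass the exact permutation test. Car4 against Car2, the membrane-bound and the cytosolic enzyme, shifted by 0.27 with a standard error of 0.19 (adjusted exact p of 0.302), and without Rragc S74N/+ replicate 2 by 0.38 (0.0159). NBCe1 and NHE3, the basolateral and the apical step, differed by 5.59 ± 0.35 in Rragc+/+ and 5.68 ± 0.35 in Rragc S74N/+ (SD, n = 5 each), with a shift of 0.09, a standard error of 0.22 and an adjusted exact p of 0.794. Car4 against Car14 shifted by 0.03 with a standard error of 0.12 (adjusted exact p of 0.873).

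Within genotypes, some of the genes deviated from their genotype mean together over the 10 mice, as a description, since all values of a mouse share 1 library. Pearson's r of these deviations was -0.90 between Car12 and Slc4a4, 0.76 between Car5b and Car14, 0.71 between Car2 and Car12, 0.71 between Car4 and Car15, and -0.67 between Slc4a4 and Slc9a3. Replicate 3 of Rragc+/+, which held the lowest Car12 and the highest Slc4a4 of its group, is one of the points behind the first value. Among 9135 genes compared, the deviations most like those of Car12 were found for Cdc42ep4, Eif3m and Eef1a1, with r of 0.96 each over 10 mice. These genes were picked as the highest r of all those compared, so neither this r nor the values that follow test a relation. Without the 2 mice farthest from the median, r was 0.95, 0.91 and 0.93. Spearman's rho over the 10 mice was lower, at 0.81, 0.78 and 0.72. Those genes had log2 fold changes of -0.18, 0.01 and 0.01, with limma adjusted p-values of 0.605, 0.981 and 0.980.

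The remaining carbonic anhydrases held 1 gene that passed the test. Of 10 further family members, 6 were tested, 1 rose and 0 fell, with a median log2 fold change of -0.14. Car3, a cytosolic enzyme of low activity that is abundant in muscle, fat and liver, was at 1823, 1429, 1407, 1294 and 1224 normalized counts in Rragc+/+ kidneys and at 4740, 3317, 3588, 3229 and 4208 in Rragc S74N/+ kidneys. All Rragc S74N/+ kidneys lay above all Rragc+/+ kidneys. The log2 fold change was 1.41 with a standard error of 0.12 and a limma adjusted p of 5.70e-07, and it was past the threshold in all 23 alternatives, from 1.25 to 1.5.

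The highest Car3 values were again in Rragc S74N/+ replicates 1 and 5, the libraries with the most Cfd, and without them the log2 fold change was 1.25 with a limma adjusted p of 2.96e-06. Car5a, Car7, Car8, Car9 and Car11 were read at means of 9.56 to 37.2 normalized counts, and their log2 fold changes of -0.41 to 0.16 did not pass the test. Summed over the 12 anhydrase genes in the table, the level was 5294 ± 391 in Rragc+/+ and 7538 ± 925 in Rragc S74N/+ kidneys (SD, n = 5 each). Of that sum, Car12 made up 17.9% ± 1.15 against 7.28% ± 1.16 and Car3 27.0% ± 3.07 against 50.4% ± 2.97 (SD, n = 5 each). Each 3′ read stands for a transcript whatever its length, but shares of 1 sum are tied to each other. The share of Car4, whose mean level was the higher in Rragc S74N/+ kidneys, was 19.9% ± 1.36 in Rragc+/+ and 16.3% ± 1.78 in Rragc S74N/+ (SD, n = 5 each).

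**Figure D4:**
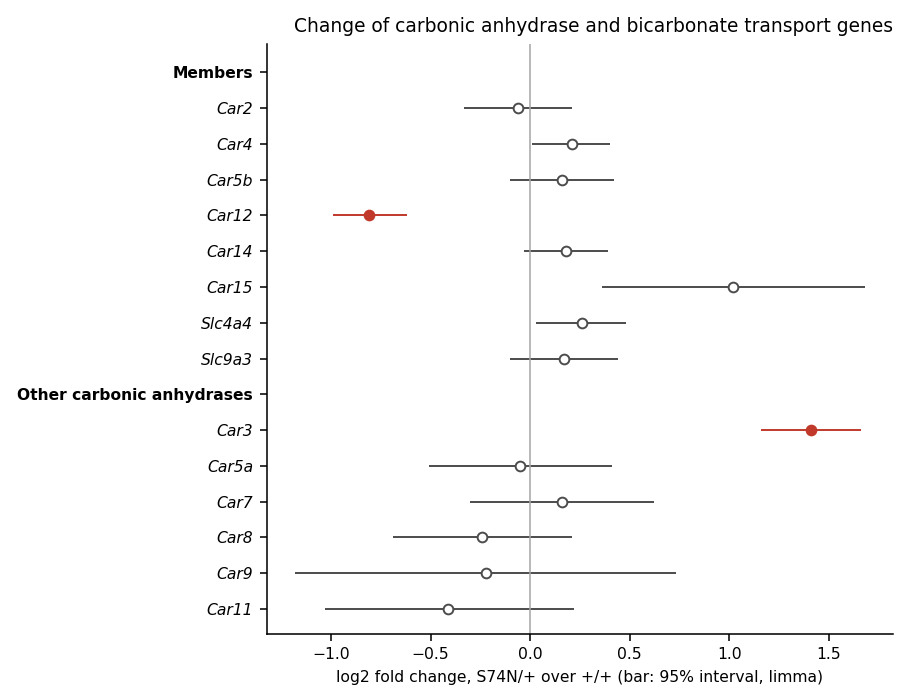
Log2 fold change, Rragc S74N/+ over Rragc+/+, of the 8 genes (top) and of 6 other carbonic anhydrases (bottom), with bars for the 95% interval from limma and filled red points where the adjusted p was under 0.05. Car12, at -0.81, and Car3, at 1.41, are filled, and Car15 has an interval from 0.36 to 1.68 but an open point.

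Of 17 other Slc4 and Slc26 anion transporters, 14 were tested and 1 passed the test, which fell, with a median log2 fold change of -0.16 over the list. An unadjusted p under 0.05 was seen for 7 of the 14, edgeR called 2 and DESeq2 3. Slc4a1, the chloride-bicarbonate exchanger AE1 of red blood cells and type A intercalated cells, was at 144, 124, 149, 131 and 125 normalized counts in Rragc+/+ kidneys and at 107, 77.1, 90.4, 99.8 and 74.9 in Rragc S74N/+ kidneys. The genotypes did not overlap, and limma gave a log2 fold change of -0.59 with an adjusted p of 0.0137. Slc4a8 and Slc4a11 were also lower without overlap but did not pass. Their log2 fold changes were -0.66 and -0.57, with limma adjusted p-values of 0.0794 and 0.0795. Slc26a6, given below, was higher without overlap. The 5 red blood cell markers summed to between 23366 and 30722 in Rragc+/+ and between 18782 and 25048 in Rragc S74N/+ kidneys, with 1 of them, Hba-a1, lower (0 called with edgeR and 1 with DESeq2), and their part in the fall of Slc4a1 was not tested.

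Slc26a6, an apical anion exchanger of the proximal tubule, was at a mean of 19.8 ± 4.88 and 50.1 ± 29.8 normalized counts (SD, n = 5 each), with a log2 fold change of 1.14 and a limma adjusted p of 0.0552, and it was past the threshold with edgeR and with DESeq2. Like Car15 it was highest in Rragc S74N/+ replicates 1 and 5, at 72.1 and 91.5. Of 10 other sodium-proton exchangers, 5 were tested and 0 passed by limma, edgeR or DESeq2, with 1 at an unadjusted p under 0.05, which was Slc9a2 (log2 fold change of 0.37, limma adjusted p of 0.149). With the series of library codes as a covariate, Slc9a2 passed by limma, with a log2 fold change of 0.43 and an adjusted p of 0.0326. Of 11 scaffolds and regulators of NHE3 and NBCe1, 10 were tested, 0 passed by limma, edgeR or DESeq2, and 2 had an unadjusted p under 0.05. Slc9a3r2, which encodes the scaffold NHERF2, had the smallest p of these (log2 fold change of 0.34, limma adjusted p of 0.197), and it passed by limma with the covariate (0.41, adjusted p of 0.0226) and without Rragc+/+ replicate 1 (0.44, adjusted p of 0.0439).

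Of 12 further genes of proximal bicarbonate reclamation and of the ammonia production that accompanies it that are reported here, 11 were tested and 4 passed by limma, all higher, with a median log2 fold change of 0.14. An unadjusted p under 0.05 was seen for 4 of the 11, and edgeR and DESeq2 each called 4. All 4 belong to metabolism or to the uptake of its substrates. Slc38a3, which encodes the glutamine transporter SNAT3, rose by 1.91 on the log2 scale (limma adjusted p of 1.99e-07), from a mean of 117 ± 25.1 to 438 ± 71.3 normalized counts (SD, n = 5 each). Slc25a10, the mitochondrial dicarboxylate carrier, was at 592, 542, 532, 644 and 605 in Rragc+/+ and at 882, 774, 916, 768 and 821 in Rragc S74N/+ kidneys, without overlap, with a log2 fold change of 0.51 and a limma adjusted p of 0.00146.

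Pck1, the phosphoenolpyruvate carboxykinase of gluconeogenesis, was at 2666, 2278, 1372, 2017 and 2150 normalized counts in Rragc+/+ kidneys and at 7956, 7115, 2343, 4484 and 5448 in Rragc S74N/+ kidneys. Replicate 3 of Rragc S74N/+ was within the Rragc+/+ range and the other 4 were above it. The log2 fold change was 1.30 with a limma adjusted p of 0.00412, which became 0.0556 without a variance trend and 0.0912 with robust variances. Glud1, the glutamate dehydrogenase, rose by 0.37 with a limma adjusted p of 0.0310, and this call was lost in 11 of 23 alternatives. Of 8 genes of acid-base sensing and its hormonal control, 6 were tested and 0 passed by limma, edgeR or DESeq2 or reached an unadjusted p under 0.05, with the smallest p for Insrr, which encodes a receptor that responds to alkaline fluid (log2 fold change of 0.51, adjusted p of 0.357).

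**Figure D5:**
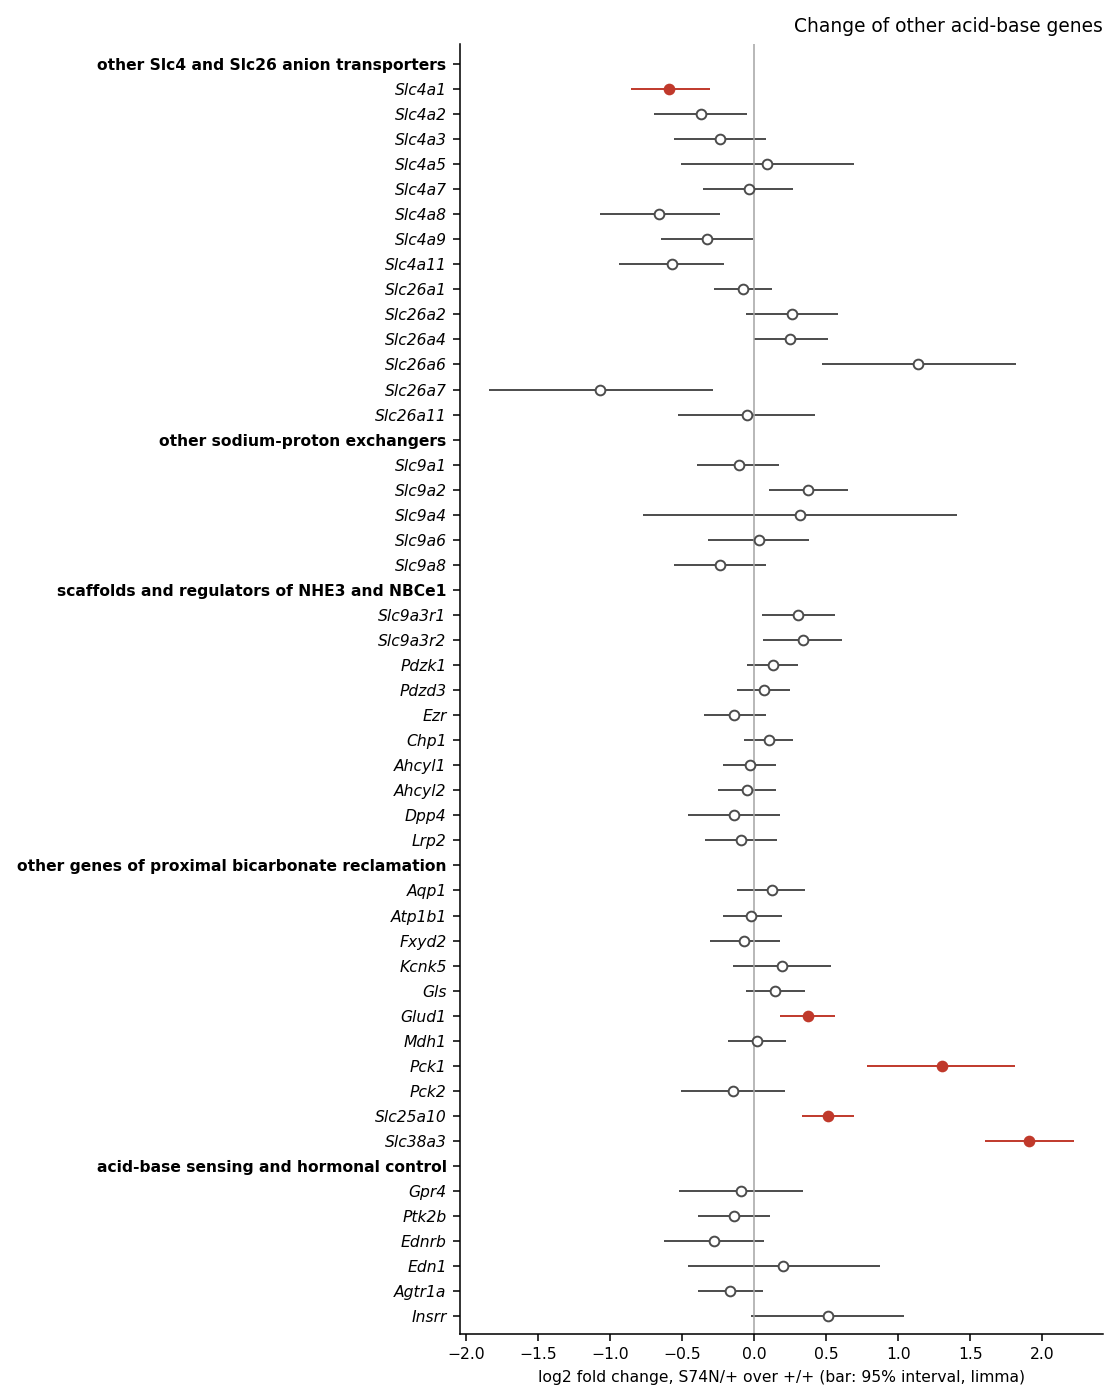
Log2 fold change, Rragc S74N/+ over Rragc+/+, of the tested genes of 5 lists of acid-base genes, with bars for the 95% interval from limma and filled red points where the adjusted p was under 0.05. Slc4a1, at -0.59, is the 1 filled point below 0, and Slc38a3, Pck1, Slc25a10 and Glud1, at 1.91, 1.30, 0.51 and 0.37, are filled above 0.

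Proximal tubule markers stood beside these values as follows. Of 7 markers of the first and second segments, 1 rose (Slc22a6) and 2 fell (Slc5a2 and Slc5a12), and their sums overlapped, at 38949 to 44533 in Rragc+/+ and 41571 to 48855 in Rragc S74N/+ kidneys. Of 4 markers of the third segment 0 passed by limma, edgeR or DESeq2 or reached an unadjusted p under 0.05, with sums from 13851 to 17413 and from 10836 to 19360. Slc34a1, the phosphate cotransporter that defines the proximal tubule, had a log2 fold change of 0.08 with a 95% interval from -0.11 to 0.27. It made up most of the sums of the first and second segments, with means of 28061 in Rragc+/+ and 29693 in Rragc S74N/+ kidneys. These sums therefore say little about the other markers. Mean normalized counts of Slc5a2 went from 1380 to 731, those of Slc5a12 from 438 to 219 and those of Slc22a6 from 4524 to 6499. None of these 3 overlapped between the genotypes, and the other 4 of the 7 did not pass the test.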

How the data were processed

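Kidney RNA of 10 mice was sequenced with QuantSeq 3′ FWD libraries. According to the study's methods and the submitters' processing notes, reads were checked with FastQC 0.11.7, aligned to GRCm39 with TopHat2 2.0.10, Bowtie 1.0.0 and SAMtools 0.1.19 with 3 mismatches and 20 multi hits allowed, and counted by strand with HTSeq 0.6.1 on GENCODE vM26. The deposited values are a signal, namely reads per gene and mouse over the size factor the authors estimated, and 0 columns of the table were left unused. Multiplied back, 100% of values came out as whole reads, within 0.01. The lowest mean of a listed gene was 5.64, so rarer genes were not analysed here.

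Genotypes came from the labels, and mice were numbered in accession order. Values were tested as log2(value + 1) with limma 3.58.1 in R 4.3.3 (trended variances, two-sided, no covariate) in 13197 genes with at least 10 normalized counts in 5 or more mice, adjusted by Benjamini-Hochberg, at a threshold of 0.05. Fold changes of low genes are understated on this scale. Exact permutation tests were two-sided. On the recovered reads, edgeR 4.0.16 called 480 genes and DESeq2 1.42.0 called 648. Other alternatives changed the pseudocount, filter, scaling, variance model or covariate, or left out mice. The scripts were tested on simulated data, and no pair of libraries agreed within sampling noise. Named genes are the 8 members, the genes past the threshold in each pathway list (or the one with the smallest p) and called markers. Slc4a8, Slc4a11, Slc12a1, Slc26a6, Slc34a1, Calb1 and Cfd were added after their values were seen. Members and lists were chosen with earlier results of these data known. Proteins were not analysed here, and 1 gene of the lists is not reported here. Permutations ran under scipy 1.17.1 and numpy 2.4.6 in python 3.11.15, with matplotlib 3.10.9 for plots.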

Additional observations from a re-analysis of the deposited data

Results flagged for a closer look

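Replicate 3 of Rragc+/+ stood apart from the rest of its group for 2 of the 8 genes. It held 835 normalized counts of Car12, with the next Rragc+/+ kidney at 961, and 6845 of Slc4a4, with the next at 5494. In both cases the gap to the nearest kidney was a larger part of the range of the group than Dixon's 95% critical value for 5 samples. In all, 16 groups (8 genes in 2 genotypes) were examined, and chance alone marks about 1 in 20 of such groups. Without this mouse, the log2 fold change of Car12 was -0.85 and that of Slc4a4 0.34, with limma adjusted p-values of 1.61e-05 and 0.0981.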

How the results depend on the processing

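Of 183 alternative fits of the 8 genes, 179 kept the direction and the side of the threshold. Car12 did so in all 23 of its own. Car15 passed with DESeq2 (log2 fold change 1.13), with the series of library codes as a covariate (1.15) and without Rragc S74N/+ replicate 2 (1.26), each of which brought the number of the 8 genes past the threshold to 2. It ran from 0.81 to 1.26 when 1 mouse at a time was left out. Car2 turned to 0.08 without Rragc S74N/+ replicate 3, within a range of -0.14 to 0.08. The cause was not tested.

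Over all genes, 487 passed (220 higher, 267 lower), 291 without a variance trend (103 higher), 832 with the covariate (434 higher, and 10 of the pathway genes) and, with 1 mouse left out, 295 to 466 (121 to 222 higher, 174 to 267 lower), with 295 without Rragc+/+ replicate 5, 310 without Rragc+/+ replicate 4, and 138 higher without Rragc S74N/+ replicate 1. Scaling to non-mitochondrial reads gave 150 higher and 309 lower. The number of the 8 genes past the threshold lay between 1 and 2 with a mouse left out.

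The direction of Slc4a4 against Slc9a3 and of Car4 against Car14 depended on single mice. Slc4a4 against Slc9a3 turned to -0.08 within codes 53 to 66, to -0.06 without Rragc S74N/+ replicates 1 and 5 (an alternative chosen after seeing the data) and to -0.05 without replicate 5 alone, within -0.05 to 0.23 over single mice. Car4 against Car14 turned to -0.02 without Rragc+/+ replicate 3, to -0.05 without Rragc S74N/+ replicate 3 and to -0.03 without replicate 5, within -0.05 to 0.08. Car4 against Car2 ran from 0.10 to 0.38. Car12 against Car15 kept its direction throughout and ran from -2.11 to -1.59 over single mice. It stood at -1.87 within codes 53 to 66 (adjusted exact p 0.229) and at -1.31 without Rragc S74N/+ replicates 1 and 5 (0.0714). These subsets allow fewer splits, so their smallest possible exact p is higher. The p within codes 53 to 66 was above that minimum, and the other was at it. Neither p can show that the shift was weaker there. No paired analysis was possible because the labels give no replicate numbers. Depth limits Car15, which was read at 12 to 95 reads per library.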

Other observations

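Markers of cells outside the tubule were read in the same kidneys. Of 5 endothelial markers 0 passed by limma, edgeR or DESeq2, with 2 at an unadjusted p under 0.05 and sums of 2003 to 2270 normalized counts in Rragc+/+ and 1452 to 2095 in Rragc S74N/+ kidneys. Of 6 markers of macrophages and other leukocytes 0 passed by these tools, with 2 at an unadjusted p under 0.05 and sums from 1886 to 2834 and from 2197 to 3223. Both tested markers of B and plasma cells had an unadjusted p under 0.05 and 0 passed by these tools, with sums from 72.0 to 174 and from 172 to 690. Of 3 tested markers of tubular injury, Lcn2 rose and Spp1 fell by limma. Y-linked transcripts were read in all 10 mice and Xist was not among the genes of the table.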
